A study of Homo sapiens with 23 samples.

Results

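Nonsense-mediated decay (NMD) transcripts were followed in SUDHL5 cells, an established human line of diffuse large B-cell lymphoma of germinal centre type. The transcripts were those that the GENCODE 29 annotation types as nonsense_mediated_decay and whose mean deposited level was 3 TPM or more over the 3 DMSO libraries, where TPM is a transcript level corrected for transcript length and library size. This rule kept 1188 of the 15269 matched transcripts of that type, and of 205804 matched transcripts in all. They came from 990 genes, of which 823 gave 1 transcript and 167 gave 2 or more. Transcripts are named by gene symbol and transcript number, as in RBM39-236.

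All 23 libraries came from this 1 cell line, grown in RPMI-1640 with 10% serum, and every treatment ended at 0.1% DMSO. CDK-TCIP1 is a bivalent molecule that brings together BCL6, a transcriptional repressor on which germinal centre B cells depend, and CDK9, a kinase needed to release paused RNA polymerase. Its 2 h arm had 2 libraries treated with 10 nM, 4 treated with 30 nM and 3 treated with 100 nM, and its 4 h arm had 3 treated with 30 nM. The comparison compounds Neg1 (BAK_04_054) and Neg2 (BAK_04_066) were given at 30 nM, with 2 libraries each at 2 h and at 4 h, and their chemical difference from CDK-TCIP1 was not used here. DMSO alone had 3 libraries, all at 4 h. Nothing in the labels ties replicates to separate cultures. The p-values therefore reflect the scatter among these libraries alone, and that scatter may be technical.

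NMD is the translation-dependent pathway that destroys mRNAs whose ribosomes stop well before the last exon-exon junction. The exon junction complex left there by splicing recruits UPF2 and UPF3B, UPF1 is phosphorylated by SMG1, and SMG6 then cuts the mRNA while other factors bring in decapping. Many genes of splicing factors use the pathway on themselves: an extra "poison" exon or a retained piece of intron adds an early stop codon, and the protein often favours its own poison form. The level of such a transcript therefore depends on splicing as well as on decay, and it was compared here with the gene's own protein_coding transcripts.

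The 7 sequences that follow show where the early stop lies in transcripts that carry the results below or belong to the splicing factor lists. Each is the last 60 coding bases in the annotation, read 5′ to 3′ on the gene's strand from the GRCh38 genome with GENCODE 29, and the capitals mark the stop codon.
RBM39-236: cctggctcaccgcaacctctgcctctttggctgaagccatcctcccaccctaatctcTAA
RBM39-216: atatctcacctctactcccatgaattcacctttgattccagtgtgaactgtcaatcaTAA
RBM39-212: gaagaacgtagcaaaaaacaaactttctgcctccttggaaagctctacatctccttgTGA
SON-206: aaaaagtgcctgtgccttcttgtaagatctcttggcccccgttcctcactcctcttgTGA
SRSF3-203: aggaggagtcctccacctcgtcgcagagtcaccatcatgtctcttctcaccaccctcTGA
SRSF7-208: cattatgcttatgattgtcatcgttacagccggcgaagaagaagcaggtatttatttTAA
CCNL1-226: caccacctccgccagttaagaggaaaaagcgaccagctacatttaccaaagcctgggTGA

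RBM39 encodes an RNA-binding splicing factor, and its 3 stops shown lie in 3 separate extra exons on the minus strand of chromosome 20. The exon of RBM39-236 spans chr20:35713702-35713857 (156 bases), and all 60 bases shown lie in it. RBM39-216 stops in an exon of 73 bases at chr20:35740525-35740597, which also holds all 60 bases. The stop of RBM39-212 is in an exon of 72 bases at chr20:35734186-35734257, which holds the last 43 bases shown.

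SON, a protein of nuclear speckles that helps splice weak introns, has its stop for SON-206 in an extra exon at chr21:33569576-33569930 (plus strand, 355 bases), which holds the last 54 bases. SRSF3-203 stops in the extra exon chr6:36599821-36600276 (plus strand, 456 bases) of SRSF3, an SR protein, and the last 34 bases shown belong to it. For CCNL1-226 the extra exon is chr3:157156936-157157083 (minus strand, 148 bases), which holds the last 31 bases. CCNL1 encodes cyclin L1, a partner of CDK11 kinases. The stop of SRSF7-208 lies in an exon made longer than in the main coding transcript, at chr2:38748579-38749705 (minus strand, 1127 bases).

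Library totals ran from 17396484 to 26373153 estimated counts, and the transcripts marked for NMD held 1.63 to 1.85% of them. The median transcript had a mean of 144 estimated counts in the DMSO libraries and a level of 6.36 TPM. RPS3-218, of a ribosomal protein gene, was highest at 804.8 TPM. Just inside the limit lay WDTC1-203 and CCNQ-207 at 3.002 and HJURP-208 at 3.003 TPM, and just outside it FECH-203 at 2.992 and AL136295.5-201 and CCNT2-204 at 2.996. In CCNQ-207 the limit was passed on 2 DMSO libraries, at 3.73 and 5.28 TPM, while the third was near 0. The highest DMSO library was over 10 times the lowest in 42 of the 1188, and 215 were at 0 counts in at least 1 of the 23 libraries.

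Estimated counts divide reads among transcripts that share sequence, and many of these transcripts have little of their own. Only 255 had 100 or more exonic bases that no other transcript of the gene holds, 716 had none, and 826 had an exon-exon junction of their own. With neither own bases nor an own junction there were 301. These figures bear on each value below, and they are repeated beside some of the transcripts named. Where none is printed, own sequence is not implied.

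As a cell check, all 8 markers of germinal centre B cells were above 1 CPM (counts scaled to library size), at gene means of 105.4 to 746 CPM. Their sum was 2430 to 2570 CPM with CDK-TCIP1 at 30 nM for 4 h and 2781 to 2892 CPM with Neg1 or Neg2. In the same 7 libraries the summed markers of T cells reached at most 3.39 CPM, of NK cells 2.51, of myeloid cells 1.46 and of epithelial cells and fibroblasts 0.746, while the 2 erythroid markers were at 0. Plasma cell markers summed to 49.4 to 57.8 CPM with CDK-TCIP1 and 61.9 to 65.6 CPM with Neg1 or Neg2. In earlier results of these data replicate 1 at 100 nM and replicate 1 of Neg2 at 2 h stood apart from their groups. Counts at 30 nM against Neg1 and Neg2 are also given without them, by ratio at both times and by level at 2 h. The dose steps were not refitted without them. In bulk RNA, fewer cells of a type and less RNA per cell cannot be told apart.

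The whole set took a smaller share of its genes' mRNA counts with CDK-TCIP1. The share is the counts of these transcripts as a percentage of theirs plus those of the protein_coding transcripts of the same genes. At 4 h it was 10.8, 10.7 and 10.9% in the 3 libraries with 30 nM CDK-TCIP1. With Neg1 it was 11.4 and 11.3%, and with Neg2 11.1 and 11.3%, so all 3 CDK-TCIP1 libraries lay below the 4 comparison libraries. At 2 h the share was 11.4 to 11.6% with Neg1 or Neg2, 10.9 to 11.0% at 10 nM, 10.6 to 10.8% at 30 nM and 10.4 to 10.6% at 100 nM, again without overlap with the comparison compounds.

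The DMSO libraries, which chose the transcripts, were highest at 11.6 to 11.8%. Of all counts, the chosen transcripts held 1.635 to 1.668% with CDK-TCIP1 at 4 h and 1.749 to 1.791% with Neg1 or Neg2. Transcripts of the same type that the limit left out moved the other way at 4 h. They held 0.637 to 0.653% of all counts with CDK-TCIP1 and 0.574 to 0.602% with Neg1 or Neg2. Transcripts typed as retained_intron held 3.25 to 3.41% against 2.91 to 3.05% in the same libraries. At 2 h with 30 nM both sets overlapped Neg1 and Neg2. The left-out transcripts held 0.5994 to 0.6237% against 0.5815 to 0.6372%, and retained_intron 2.925 to 3.156% against 3.015 to 3.147%. At 100 nM retained_intron was lower, at 2.793 to 2.902%, while the left-out transcripts overlapped at 0.5765 to 0.6089%. The part that the choice of transcripts by their DMSO level plays in the fall of the share was not tested, and a sum over chosen transcripts was given no p.

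**Figure D1:**
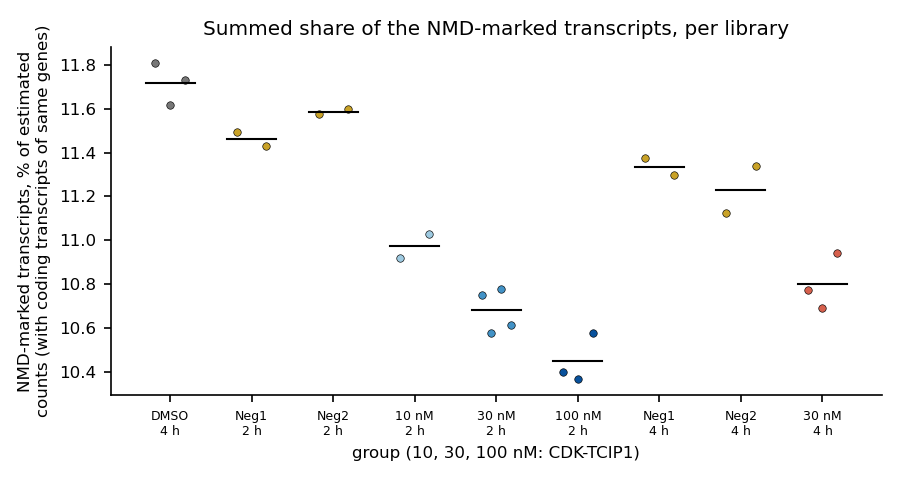
Counts of the 1188 transcripts as a percentage of their own plus the protein_coding counts of the same genes (vertical axis, not starting at 0), 1 point per library and a line at the mean of each of the 9 groups. The 12 libraries with CDK-TCIP1 lie between 10.4 and 11.0%, below the 8 with Neg1 or Neg2 at 11.1 to 11.6%.

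Single transcripts moved in both directions. Against the mean of Neg1 and Neg2 at 4 h, 55 of the 1184 in the test rose and 79 fell at 30 nM CDK-TCIP1 (edgeR quasi-likelihood F test, Benjamini-Hochberg adjusted p under 0.05). That is 11.3% of them, beside 7.83% called of 71167 transcripts tested (3.85% higher, 3.98% lower) and 18.7% of those with 3 TPM or more in DMSO (7.31% higher, 11.4% lower). Their median log2 change was -0.14, beside 0.06 for all transcripts and -0.08 for protein_coding transcripts above the same limit. The 3 CDK-TCIP1 libraries did not overlap the 4 comparison libraries for 121 transcripts that were higher and 196 that were lower, beside 21.3% of all transcripts tested. The share that passed the test was thus below that of all transcripts above the limit, most of which are protein_coding (22.5% called). It was above the 8.92% of retained_intron transcripts with the same limit. Levels within these sets were not matched.

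Measured against the gene's other protein_coding transcripts, fewer changed. The ratio rose for 29 and fell for 20 of the 1160 tested, from 27 and 20 genes, beside 1.8% called of 60833 transcripts tested (1.12% higher, 0.677% lower). Among transcripts with 3 TPM or more in DMSO 3.51% were called, 1.77% higher and 1.74% lower, close to the 2.50% and 1.72% found here. The median log2 change of the ratio was -0.09, beside 0.07 for all transcripts and -0.05 for protein_coding ones above the limit. No call of the ratio held in an edgeR fit of the 7 libraries of the 3 groups alone, which leaves 4 residual degrees of freedom in place of 14. There 71 were higher and 97 lower at an unadjusted p under 0.05, while limma on the log2 ratios of all 23 libraries called 42 higher and 35 lower. With any 1 of those libraries left out of the full fit, 16 to 22 rose and 3 to 11 fell, and 13 rises and 2 falls were called in each of these 7 fits. The rises dropped most without CDK-TCIP1 replicate 3 (18), Neg1 replicate 2 (16) or Neg2 replicate 2 (19), and the falls dropped by over 1.5 times without each of the 7. Without 100 nM replicate 1 and Neg2 2 h replicate 1, 25 rose and 9 fell.

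Both sides of the ratio moved. Where it rose, the coding transcripts had a median log2 change of -0.51 and were below the comparison mean for 26 of 29, while the NMD-marked transcript itself had a median of 0.91. Of the 29, 19 also rose by the transcript test, 9 did not pass it and 1, SRSF3-203, fell. Where the ratio fell, coding transcripts had a median of 0.31 and the marked transcript -1.13, and 16 of the 20 fell by the transcript test while 4 did not pass it. These medians describe transcripts chosen by the ratio and are no test.

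**Figure D2:**
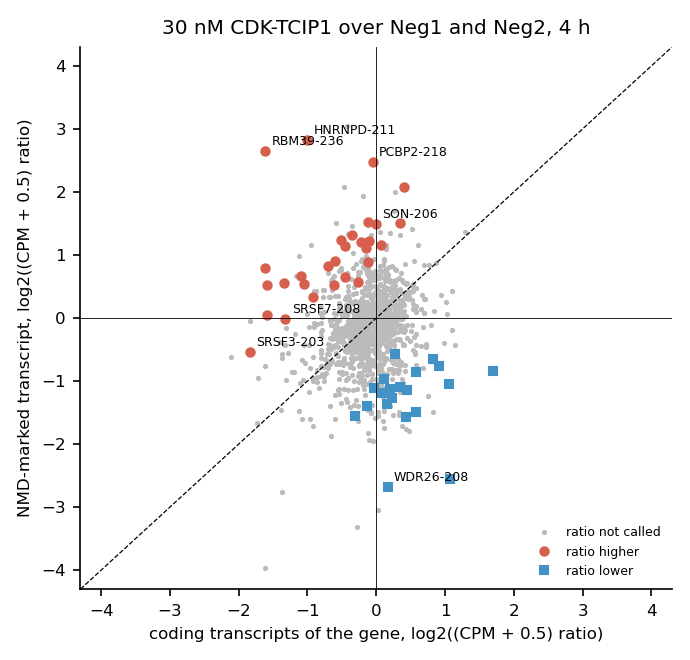
Log2 change of each NMD-marked transcript (vertical axis) against that of the protein_coding transcripts of its gene (horizontal axis), 30 nM CDK-TCIP1 over the mean of Neg1 and Neg2 at 4 h, from mean CPM with 0.5 added. Red circles mark the 29 transcripts whose ratio rose, blue squares the 20 whose ratio fell and grey points the others, 1 of which lies outside the axes. On the dashed line both sides change alike.

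The highest ratio rises with own sequence behind them included an RBM39 transcript. RBM39-236, with 130 bases and 1 junction of its own, was at 35.9, 31.7 and 28.8 CPM with CDK-TCIP1 at 4 h. With Neg1 it was at 5.65 and 3.97 CPM and with Neg2 at 4.90 and 4.39 CPM, below all 3. The coding transcripts of RBM39 moved the opposite way, from 161 to 179.8 CPM with the comparison compounds to 52.3 to 59.0 CPM. Per 100 coding counts there were 65.5, 60.7 and 48.9 counts of RBM39-236, against 2.21 to 3.35 in the 4 comparison libraries. The transcript rose by 2.77 ± 0.19 (log2 ± SE, adjusted p = 5.13e-08) and its ratio by 4.39 ± 0.28 (adjusted p = 1.92e-06).

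The same transcript was followed over the doses at 2 h. RBM39-236 stood at 25.5 and 24.1 counts per 100 coding counts at 10 nM, 40.1 to 58.1 at 30 nM and 53.5 to 63.7 at 100 nM, against 2.38 to 4.09 with Neg1 or Neg2 and 2.76 to 4.97 in DMSO. The 10 nM libraries lay below all those at 30 nM, and those at 30 and 100 nM overlapped. Neither step passed the test of the ratio (0.93 ± 0.31 from 10 to 30 nM and 0.33 ± 0.27 from 30 to 100 nM, adjusted p = 1 for both).

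RBM39-216 and RBM39-212 have no base or junction of their own, so their counts rest on how reads were divided. RBM39-216 was at 71.4, 82.7 and 78.3 CPM with CDK-TCIP1 at 4 h and at 48.6, 31.4, 49.1 and 49.4 CPM with the comparison compounds, and did not overlap them. Its ratio rose by 2.44 ± 0.26 (adjusted p = 0.000206), to 130.4 to 158 counts per 100 coding counts from 17.4 to 30.5. RBM39-212 went down, to 1.03 CPM in 1 library and 0 in the other two, from 7.27, 19.0, 12.0 and 12.6 CPM. It fell by the transcript test (-5.15 ± 1.38, adjusted p = 0.0268), while the ratio did not pass (-5.27 ± 1.74, adjusted p = 0.174). The fourth NMD-marked transcript of the gene, RBM39-244, which has 1 junction of its own, passed neither test at 4 h (-1.17 by level, adjusted p = 0.181, and 0.37 by ratio, adjusted p = 0.84).

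SON-206, with 304 bases of its own, was at 8.68, 14.1 and 8.52 CPM with CDK-TCIP1 at 4 h against 3.84, 3.36, 3.31 and 3.12 CPM. Coding SON was at 507 to 513 CPM against 490.3 to 541 CPM, and overlapped. The ratio rose by 1.58 ± 0.26 (adjusted p = 0.00391). At 2 h the 4 libraries with 30 nM were at 10.8 to 12.8 CPM and the 4 comparison libraries at 3.09 to 3.98 CPM, and the ratio rose by 1.93 ± 0.24 (adjusted p = 0.000572).

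PCBP2 encodes a poly(C)-binding protein that stabilises and translates mRNAs. PCBP2-218, with 859 bases of its own, was at 40.6, 39.9 and 42.9 CPM against 7.47, 6.09, 8.48 and 5.91 CPM at 4 h, with no overlap. Coding PCBP2 was at 691 to 709 CPM against 699.7 to 741 CPM. The transcript rose by 2.56 ± 0.15 (adjusted p = 7.74e-09) and the ratio by 2.62 ± 0.19 (adjusted p = 5.46e-06). At 2 h the transcript stood at 25.8 and 23.1 CPM with 10 nM, 30.7 to 38.2 CPM with 30 nM and 42.5 to 53.0 CPM with 100 nM, and the 3 doses did not overlap. The ratio at 30 nM had risen by 2.16 ± 0.17 (adjusted p = 2.78e-05), and neither dose step passed the test.

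Of the hnRNP and PTB proteins, which bind nascent RNA and often repress exons, 16 transcripts were tested. At 4 h the ratio rose for 4 and fell for none, with a list median of 0.50 beside 0.07 for all transcripts. By the transcript test 3 rose and 3 fell. Over all transcripts 1.12% rose and 0.677% fell by ratio, and 3.85% and 3.98% by level. Above the DMSO limit these were 1.77% and 1.74% by ratio, and 7.31% and 11.4% by level. HNRNPD-211, which has 2 junctions of its own, shares the stop codon of the main coding transcript and has its last junction after it. It was at 14.9, 13.95 and 12.2 CPM against 2.22, 1.81, 1.64 and 0.355 CPM, with no overlap, and coding HNRNPD at 232 to 270.2 CPM against 489 to 514 CPM. Its ratio rose by 4.44 ± 0.43 at 4 h (adjusted p = 8.01e-05) and by 3.09 ± 0.38 at 2 h (adjusted p = 0.000577).

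The others were HNRNPU-208 (1.46 ± 0.19, adjusted p = 0.00105), HNRNPL-202 (1.63 ± 0.27, adjusted p = 0.00433) and HNRNPH1-219 (1.64 ± 0.31, adjusted p = 0.0101). HNRNPU-208 and HNRNPH1-219 have no base or junction of their own, and the call on HNRNPH1-219 was lost in 1 of the 7 fits that left out a library. HNRNPL-202 was at 23.1, 25.6 and 17.3 CPM against 10.0, 9.91, 8.32 and 10.4 CPM, without overlap. Gene totals of the 28 hnRNP and PTB genes were higher for 2 and lower for 15 at 4 h. At 2 h they were higher for 12 and lower for 4, beside 38.2% of 17743 genes called at 4 h (18.5% higher, 19.7% lower) and 37.1% at 2 h (19.1% higher, 18% lower).

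Of 28 spliceosome transcripts tested, 5 had a higher ratio and none a lower one: the 2 RBM39 forms, SON-206, DDX46-207 and SNRNP70-202. Over all transcripts the ratio was higher for 1.12% and lower for 0.677%, and above the DMSO limit for 1.77% and 1.74%. DDX46 is a helicase of early spliceosome assembly. DDX46-207, with 30 own bases and no own junction, was at 41.8, 44.0 and 43.3 CPM against 22.6, 28.2, 21.3 and 23.8 CPM, while coding DDX46 was at 93.6 to 111 CPM against 160.1 to 177 CPM. Neither side overlapped, and the ratio rose by 1.55 ± 0.22 (adjusted p = 0.00166). For SNRNP70-202, of the U1 snRNP protein U1-70K, the rise of 1.09 (adjusted p = 0.00791) was lost in 3 of the 7 fits that left out a library.

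SR proteins and TRA2 factors, which promote exon inclusion and are the textbook genes of poison exons, gave 12 transcripts from 9 genes. At 4 h the ratio rose for SRSF7-208 and SRSF3-203 and fell for none, and the list's median was 0.42. By level 1 rose and 2 fell. Beside these stand 1.12% higher and 0.677% lower by ratio over all transcripts, and 3.85% and 3.98% by level. Above the DMSO limit they were 1.77% and 1.74% by ratio, and 7.31% and 11.4% by level.

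SRSF3-203 was at 52.9, 49.5 and 48.9 CPM with CDK-TCIP1 at 4 h, below 71.2, 72.9, 72.1 and 77.1 CPM with the comparison compounds. The coding transcripts of SRSF3 were at 169, 150.3 and 131 CPM, below 516 to 556 CPM. The marked form thus fell by 0.54 ± 0.10 on the log2 scale (adjusted p = 0.00157) while its ratio rose by 1.30 ± 0.18 (adjusted p = 0.00127), to 31.4 to 37.4 per 100 coding counts from 13.0 to 14.5. At 2 h the ratio did not pass (0.49 ± 0.17, adjusted p = 0.207). The second SRSF3 form, SRSF3-204, was at 4.35, 4.96 and 1.47 CPM against 5.17, 3.73, 4.62 and 1.44 CPM and passed neither test.

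SRSF7-208 has no base or junction of its own. It was at 66.3, 74.5 and 70.8 CPM against 71.0, 67.8, 72.4 and 75.3 CPM at 4 h, overlapping, while coding SRSF7 was at 56.8 to 71.2 CPM against 159.5 to 169.6 CPM. Its ratio rose by 1.31 ± 0.19 (adjusted p = 0.00211), to 93.1, 111 and 125 per 100 coding counts from 40.0 to 45.7. At 2 h the transcript was at 49.1 to 54.8 CPM against 70.6 to 82.5 CPM and fell by 0.57 ± 0.07 on the log2 scale (adjusted p = 2.89e-05), with no change called in the ratio (0.04 ± 0.18, adjusted p = 0.988).

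TRA2B-206 and SRSF1-206 showed level changes without a called ratio. TRA2B-206, with no sequence of its own, was at 197, 198 and 167 CPM against 143.6, 141, 144 and 143 CPM and rose by 0.39 ± 0.08 (adjusted p = 0.00389), with a ratio change of 0.32 ± 0.17 (adjusted p = 0.486). SRSF1-206, with 37 bases and 1 junction of its own, was at 46.3, 49.8 and 40.9 CPM against 104, 107, 95.0 and 97.3 CPM. It fell by 1.14 ± 0.09 on the log2 scale (adjusted p = 2.43e-07), and the ratio change of -0.60 ± 0.16 did not pass (adjusted p = 0.0719). SRSF5-211 had a lower ratio at 2 h (-3.04 ± 0.65, adjusted p = 0.0278) but not at 4 h (-1.55 ± 0.66, adjusted p = 0.351), and the 2 h call was lost in 5 of 8 fits that left out a library.

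The remaining SR forms passed no test at 4 h. Their ratio changes were 0.79 ± 0.23 for SRSF10-215, 0.34 ± 0.31 for SRSF11-212, 0.50 ± 0.34 for SRSF2-204, -0.31 ± 0.37 for SRSF2-208 and 0.63 ± 0.54 for SRSF7-207. SRSF6-202 fell by level at 2 h (-1.07). Across the list, then, ratio and level did not go in 1 direction.

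**Figure D3:**
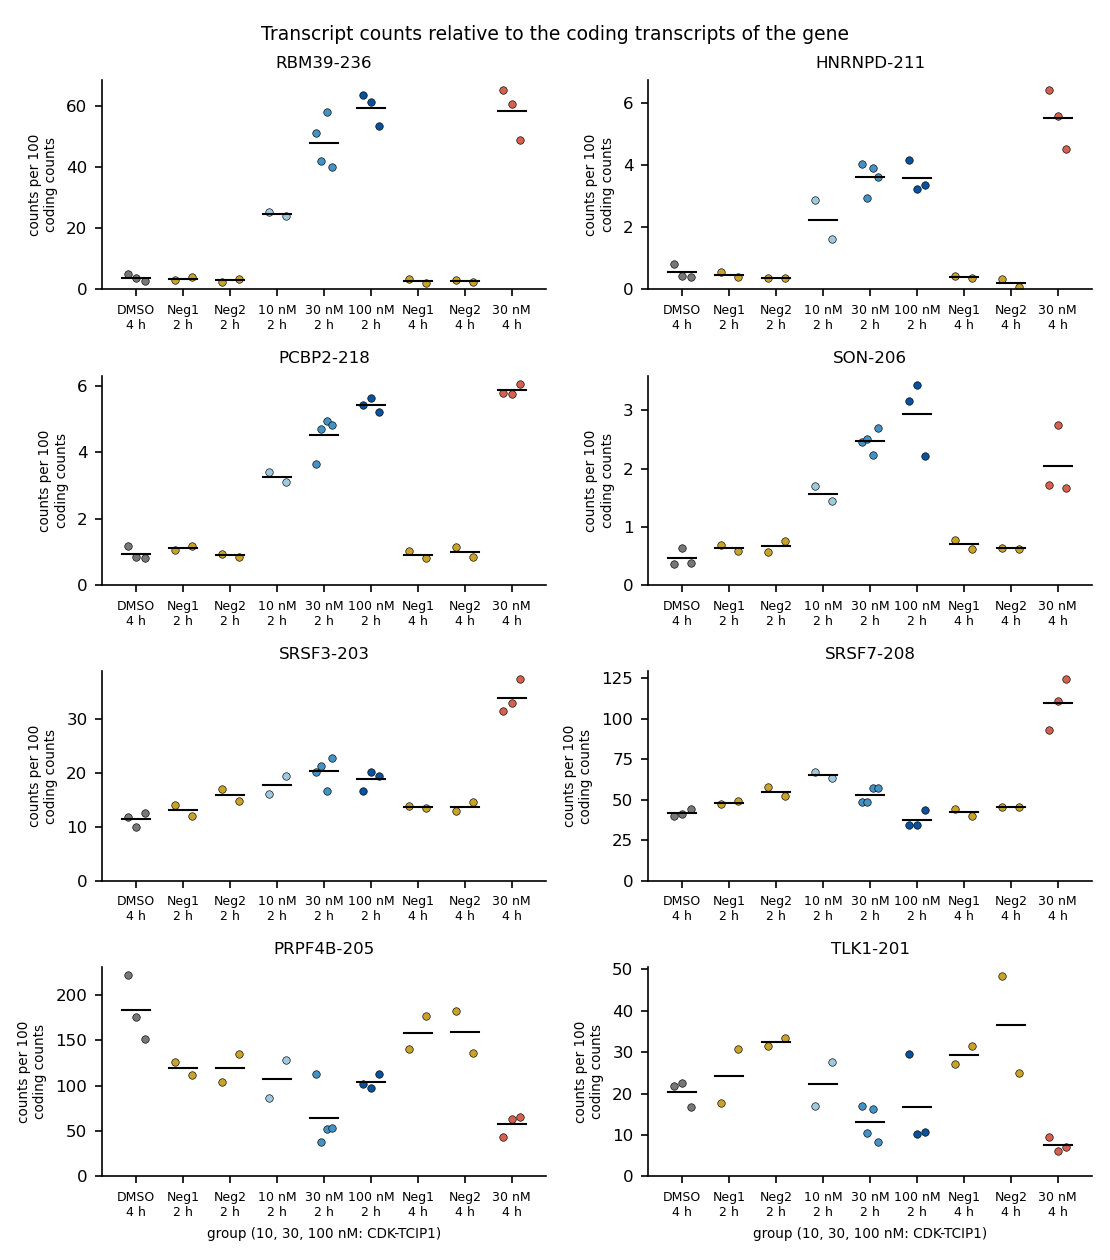
Estimated counts of 8 NMD-marked transcripts per 100 counts of the protein_coding transcripts of the gene (vertical axes, from 0), 1 point per library with a line at the group mean, for all 9 groups (10, 30 and 100 nM refer to CDK-TCIP1). RBM39-236, HNRNPD-211, PCBP2-218 and SON-206 are above the comparison groups at both times, SRSF7-208 at 4 h, and PRPF4B-205 and TLK1-201 are lower at 4 h.

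CDC2-like kinases and L cyclins, which phosphorylate or pair with regulators of SR proteins, gave 6 transcripts. At 4 h by level CLK1-204 (0.78 ± 0.23, adjusted p = 0.0446) and CCNL1-226 (1.38 ± 0.25, adjusted p = 0.0017) rose and PRPF4B-205 fell. Over all transcripts 3.85% rose and 3.98% fell by level, and above the DMSO limit 7.31% and 11.4%. CCNL1-226 has 1 junction and no base of its own. At 2 h it was at 29.1, 19.9, 28.0 and 25.5 CPM with 30 nM against 8.11, 3.80, 3.23 and 4.90 CPM, while coding CCNL1 overlapped, at 14.5 to 24.4 CPM against 24.0 to 30.6 CPM. Its ratio rose by 3.08 ± 0.35 at 2 h (adjusted p = 0.000364) and was 1.40 ± 0.37 at 4 h (adjusted p = 0.0719). The difference between those times did not pass the test (-1.68 ± 0.50, adjusted p = 0.793). The gene total of CCNL1, over transcripts of all types, was at 111 ± 2.49 CPM (SD) with Neg1 or Neg2 at 4 h. That total rose by 0.69 ± 0.07 at 2 h (adjusted p = 3.4e-08, edgeR) and by 0.91 ± 0.08 at 4 h (adjusted p = 5.94e-10).

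PRPF4B encodes a kinase of the U4/U6.U5 particle, and PRPF4B-205 has 1303 bases of its own. It was at 31.2, 42.2 and 41.4 CPM at 4 h against 77.0, 88.2, 85.1 and 78.7 CPM, with no overlap, and fell by 1.10 ± 0.18 on the log2 scale (adjusted p = 0.000536). Its ratio fell by 1.47 ± 0.34 on the same scale (adjusted p = 0.0342), but that call was lost in each of the 7 fits that left out a library. CCNL2-205 and CCNL2-216 passed no test at 4 h (ratio 0.22 ± 0.70 and -0.73 ± 1.13).

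Outside the lists, CHTF8-206, of a subunit of an alternative clamp loader, was at 7.16, 5.39 and 5.96 CPM against 0.491, 0.615, 1.66 and 1.52 CPM. It has no base or junction of its own, and its coding transcripts were also higher, at 180 to 198 CPM against 141 to 149 CPM. The ratio rose by 2.28 ± 0.28 (adjusted p = 0.000614). SRRT-219, of the cap-linked protein ARS2, and RBMX-212, of an hnRNP of the X chromosome, also rose in each fit that left out a library, by 1.86 (adjusted p = 0.00172) and 1.27 (adjusted p = 0.0033). These 2 were chosen after their values were seen. They have 262 and 900 bases of their own.

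The 16 other rises of the ratio lost the call in at least 1 fit that left out a library. They ran from 0.84 for GPI-222 to 2.86 for PLCG2-205, of the phospholipase that signals from the B cell receptor. RIPK2-204, of a kinase of innate immune signalling, had a ratio change of 1.97 (adjusted p = 0.00829) and kept the call in 5 of 7 fits.

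Of the 20 falls of the ratio, 2 kept the call in each of those 7 fits. GPATCH2L-205, with 3 bases and 1 junction of its own, was at 0.157, 0 and 0.552 CPM with CDK-TCIP1 at 4 h against 3.91, 3.96, 4.10 and 3.30 CPM. Its coding transcripts were at 88.8 to 95.0 CPM against 39.5 to 46.8 CPM. The ratio fell by 5.70 ± 1.02 on the log2 scale (adjusted p = 0.00762).

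SNAPC3-206 belongs to a subunit of the complex that starts transcription of small nuclear RNAs. It was at 6.11, 6.98 and 7.57 CPM against 11.8, 13.5, 16.6 and 16.99 CPM, and coding SNAPC3 at 24.4 to 27.8 CPM against 11.4 to 13.7 CPM. Per 100 coding counts it stood at 22.4, 28.7 and 27.3, against 104.1, 104, 122 and 145.6. The ratio fell by 2.18 ± 0.37 on the log2 scale at 4 h (adjusted p = 0.00501) and by 1.46 ± 0.34 at 2 h (adjusted p = 0.0435). It has no sequence of its own, and the 2 h call was lost in 7 of 8 fits that left out a library.

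The 18 others lay between -0.88 for RPL13A-214 and -3.11 for WDR26-208 and lost the call in at least 4 of the 7 fits. WDR26, a subunit of a ubiquitin ligase, had its marked form at 2.63, 1.32 and 1.79 CPM against 20.9, 8.99, 17.8 and 12.3 CPM, with 106 bases and 4 junctions of its own. TLK1-201, of a chromatin assembly kinase, carries 69 bases and 2 junctions of its own and was at 6.18, 3.47 and 4.32 CPM against 13.3, 15.0, 21.0 and 10.1 CPM. The groups overlapped in neither, and the ratios fell by 3.11 ± 0.70 (adjusted p = 0.0331) and 2.10 ± 0.42 (adjusted p = 0.0168) on the log2 scale.

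Some large level changes had no stable ratio behind them. NASP-206, of a histone chaperone gene, was at 0 in each of the 12 CDK-TCIP1 libraries and also in 1 DMSO library. With Neg1 and Neg2 it ranged from 0.711 to 13.5 CPM, and it has no sequence of its own, so no fold is given. POLR2L-202, of an RNA polymerase subunit, was at 1.49, 6.93 and 9.55 CPM at 4 h against 0, 0, 0 and 1.13 CPM, but at 3.24 to 6.38 CPM in DMSO and 0.509 to 9.16 CPM with the same compounds at 2 h. CDK11B-205, of a transcriptional kinase, was at 22.4, 6.59 and 11.8 CPM against 3.198, 1.37, 3.08 and 4.42 CPM. It did not overlap and rose by level (2.22 ± 0.57, adjusted p = 0.0203) but not by ratio (1.82 ± 0.67, adjusted p = 0.241), with no sequence of its own.

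AC015813.2-201 has 2270 bases and 5 junctions of its own but no protein_coding transcript in its gene, so it has no ratio. Its gene overlaps SRSF1 on the same strand. Own bases and junctions were counted against transcripts of the same gene only, so sequence shared with SRSF1 was not tested. It was at 29.7, 37.8 and 41.4 CPM with CDK-TCIP1 at 4 h, above 5.81, 6.39, 6.17 and 4.59 CPM with the comparison compounds and 4.62 to 7.43 CPM in DMSO. It rose by 2.66 ± 0.30 at 4 h (adjusted p = 1.22e-05) and by 3.22 ± 0.29 at 2 h (adjusted p = 2.22e-06).

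BLNK-205 and POU2F2-213 were among the largest falls by level. BLNK-205, of the adaptor that links the B cell receptor to its downstream kinases, was at 1.62, 1.95 and 0.955 CPM against 4.57, 5.30, 4.76 and 5.81 CPM (-1.76 ± 0.38, adjusted p = 0.0056). Its coding transcripts were lower too, at a mean of 37.5 against 82.7 CPM. POU2F2-213, of the transcription factor OCT2, was at 1.30, 1.11 and 0.544 CPM against 2.79, 5.29, 2.55 and 3.14 CPM (-1.78 ± 0.46, adjusted p = 0.0205), with coding transcripts at 413 against 537.5 CPM, and its call was lost in 4 of 7 fits that left out a library. Neither ratio passed the test, at -0.68 ± 0.40 and -1.44 ± 0.43 (adjusted p = 0.55 and 0.124).

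Beside the housekeeping lists stand 7.83% of all transcripts called by level at 4 h and 1.8% by ratio. Above the DMSO limit these were 18.7% and 3.51%. At 2 h 7.26% of all transcripts were called by level and 1.4% by ratio, and above the limit 17.2% and 2.38%. At such shares, few or no calls by ratio do not set lists of this size apart. Of 35 transcripts of cytosolic ribosomal protein genes, none passed by level at 4 h (2 at an unadjusted p under 0.05, edgeR) and 1, RPL13A-214, had a lower ratio (-0.88 ± 0.21, adjusted p = 0.0444). Its call was lost in each of the 7 fits that left out a library. The list's median ratio change was -0.16, while the gene totals of 83 ribosomal protein genes had risen for 45 and fallen for 2. Of all genes 18.5% rose and 19.7% fell at 4 h. At 2 h the median level change of the 35 was 0.41, with 29 positive, beside 0.10 for all transcripts. The gene totals had then risen for 78 and fallen for 1, beside 19.1% and 18% of all genes. Of the 35, RPL21-208 passed by level at 2 h (2.07, adjusted p = 0.0292) and none by ratio (6 unadjusted). Mitochondrial ribosomal proteins (17 transcripts), translation factors (16), the proteasome (8) and apoptosis genes (3) had no call by either test at 4 h. At an unadjusted p under 0.05 these 4 lists had 0, 2, 2 and 0 by level and 0, 6, 1 and 0 by ratio. At 2 h MRPS22-214 rose by level (0.79, adjusted p = 0.0432) and EIF4A2-202, of a translation initiation helicase, by ratio (1.503, adjusted p = 0.0107). The 2 h calls on RPL21-208, MRPS22-214 and EIF4A2-202 were lost in 5, 6 and 2 of the 8 fits that left out a library. Of 8 transcripts of transcriptional kinases and elongation factors, CDK11B-205 rose and BRD2-212 fell (-0.66) by level, and none by ratio (3 unadjusted).

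**Figure D4:**
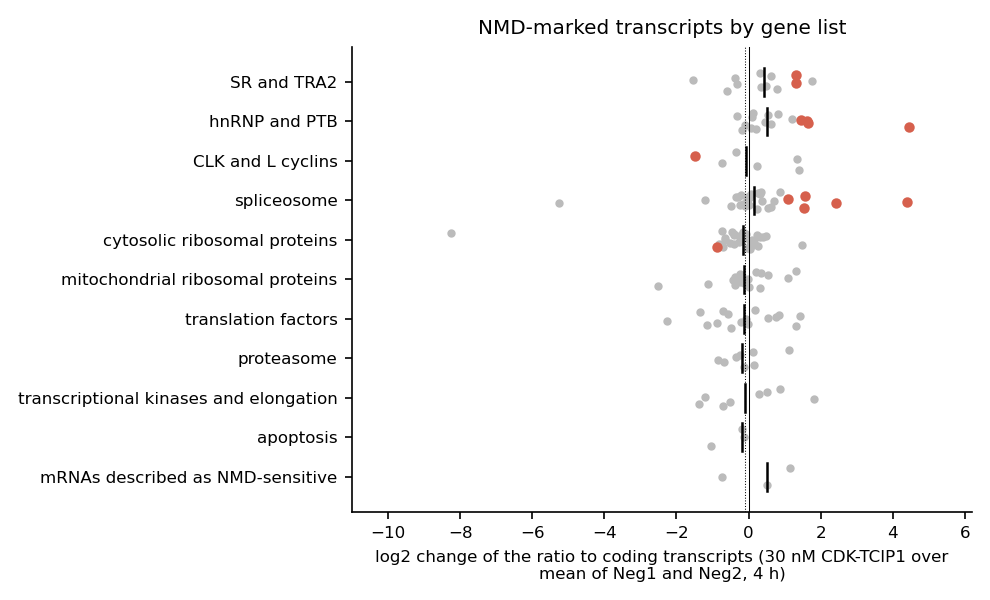
Log2 change of the ratio to coding transcripts at 30 nM CDK-TCIP1 and 4 h over the mean of Neg1 and Neg2 (horizontal axis), 1 point per transcript by gene list, red where the adjusted p was under 0.05, with a bar at each list's median and a dotted line at the median of all NMD-marked transcripts (-0.09). The 4 red points of the hnRNP list and the 5 of the spliceosome list lie to the right of 0, and CLK with the L cyclins and the ribosomal proteins have 1 red point each to the left.

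Where the early stop lay was described from the annotation, which the rule did not use beyond the type. In 549 transcripts the stop codon was inside the coding sequence of the gene's main coding transcript. In 303 it was in a separate extra exon within the gene, in 146 in a piece added to an exon, in 84 it was the same stop as in the main transcript, and in 64 it was in a separate exon beyond it. Of the others, 6 stopped in an untranslated part of the main transcript, 11 elsewhere, 21 had no protein_coding transcript in the gene and 4 no annotated stop. From stop to last junction there were 346.5 bases at the median. At 12 transcripts this was under 50 bases, the distance past which a stop is commonly held to trigger NMD and which the annotation uses for its type.

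By class, the ratio at 4 h rose for 12 and fell for 6 of 301 transcripts with a separate exon within the gene. It rose for 6 and fell for 7 of 546 with a stop inside the main coding sequence, for 4 and 1 of 146 with a piece added, and for 3 and 2 of 83 with the same stop. In a separate exon beyond the main transcript it rose for 2 and fell for 3 of 63, and of 11 stops elsewhere for 2 and 1. Beside these stand 1.12% of all transcripts higher and 0.677% lower, and 1.77% and 1.74% of those above the DMSO limit. The median changes of the 5 larger classes were -0.10, -0.11, -0.16, 0.10 and -0.01. Of the 29 rises, 10 had 100 or more own bases, 19 an own junction and 7 neither, and of the 20 falls 6, 13 and 4.

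At 2 h with 30 nM, 47 transcripts rose and 58 fell by level against the mean of Neg1 and Neg2, beside 7.26% of all transcripts called (4.01% higher, 3.24% lower) and 17.2% of those with 3 TPM or more in DMSO (7.88% higher, 9.34% lower). The 4 libraries of each side did not overlap for 77 that were higher and 132 that were lower, beside 14.4% of all transcripts. The ratio rose for 19 and fell for 8, beside 1.4% called (0.886% higher, 0.518% lower) and 2.38% above the DMSO limit (1.09% higher, 1.29% lower). When each library was left out in turn 8 to 20 rose by ratio and 0 to 6 fell, with the fewest rises without 30 nM replicate 4 (11), Neg1 replicate 1 (12) or 2 (8) or Neg2 replicate 1 (9). The falls dropped by over 1.5 times without each library but 30 nM replicate 2 (6). Without Neg1 replicate 1, where edgeR called 0 falls, 98 were lower at an unadjusted p under 0.05. By level the rises dropped to 30 without Neg1 replicate 2 or Neg2 replicate 1, and the falls to between 30 and 38 without 30 nM replicate 3 or any of the 4 comparison libraries. Called in each of those 8 fits were 6 rises, RBM39-236, HNRNPD-211, CCNL1-226, PCBP2-218, SON-206 and CHTF8-206, and no fall. Without the 2 libraries that stood apart, 7 rose and 1 fell by ratio, and 32 rose and 42 fell by level.

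The 2 times share no library, but both were tested in 1 fit of all 23 libraries. Of the 29 with a ratio rise at 4 h, 28 had a positive change at 2 h and 12 passed the test there. Of the 20 falls 19 were negative and 4 passed. By the log2 ratio at 30 nM and 2 h, 522 of all 1160 were positive and 638 negative. Over all transcripts 0.886% were called higher and 0.518% lower at 2 h, and above the DMSO limit 1.09% and 1.29%. The medians of the 29 at 2 h, against the mean of Neg1 and Neg2, were 0.59 at 10 nM, 1.07 at 30 nM and 1.07 at 100 nM, beside 1.80 at 30 nM and 4 h. For the 20 falls they were -0.81, -1.13 and -0.92, beside -1.61, and for all 1160 tested they lay from -0.09 to -0.10. From 10 to 30 nM the ratio was higher for 26 of the 29, 10 of the 20 and 577 of the 1160. From 30 to 100 nM it was higher for 11, 9 and 585.

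**Figure D5:**
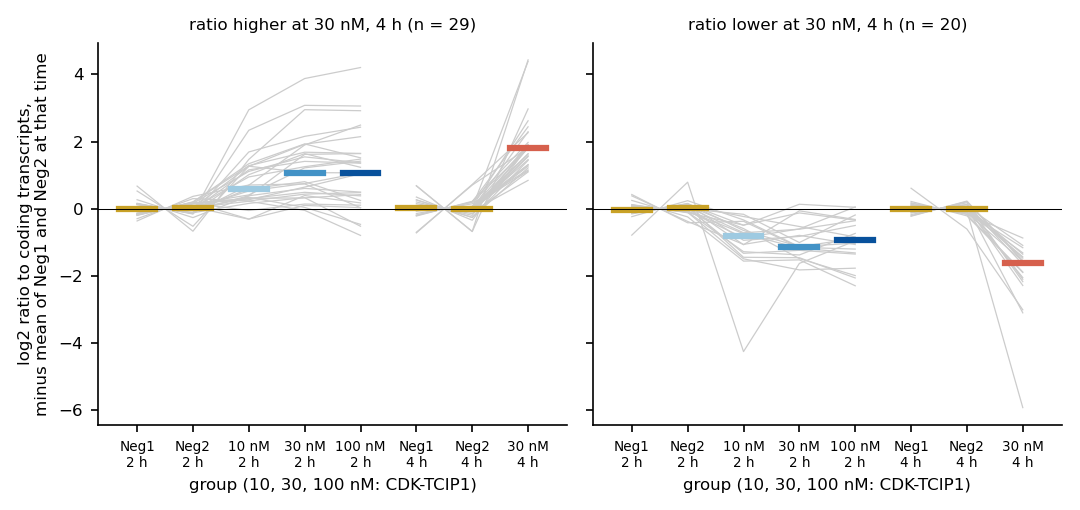
Log2 ratio to coding transcripts in each group minus the mean of Neg1 and Neg2 at the same time (vertical axis), 1 grey line per transcript and a bar at the median, for the 29 with a ratio rise (left) and the 20 with a fall (right) at 30 nM CDK-TCIP1 and 4 h. The 4 h values chose the transcripts, and Neg1 and Neg2 mirror each other by construction. The 2 h medians at 30 nM are 1.07 and -1.13.

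Dose steps, time and the comparison compounds gave few calls. None passed from 10 to 30 nM by level (94 at an unadjusted p under 0.05, beside 0.0239% of all transcripts called), while from 30 to 100 nM 1 rose and 5 fell (0.62% of all called, 0.146% higher and 0.474% lower). From 2 to 4 h at 30 nM 11 rose and 28 fell (2.16%, 0.842% and 1.32%), and the effect against Neg1 and Neg2 differed between the times for 10, 6 higher and 4 lower at 4 h (0.568%, 0.167% and 0.4%). Neg1 and Neg2 differed for none at 4 h or 2 h by edgeR (23 and 66 at an unadjusted p under 0.05, beside 0.00141% and 0.0126% called). Nor did any change with time under Neg1 and Neg2 (76 unadjusted, 0.00562%).

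By ratio, edgeR called none of the 1160 in any of these comparisons. At an unadjusted p under 0.05 there were 50 and 53 for the dose steps, 76 for time, 64 for the difference over time and 18, 37 and 48 for Neg1 against Neg2 at 4 h, at 2 h and for their change with time. Of all transcripts 0.00164%, 0.0115%, 0.0132%, 0.00822%, 0.00493%, 0.00822% and 0% were called, in that order.

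The decay machinery itself was read from gene totals. Of 13 core NMD genes 1 rose and 7 fell at 4 h, and 2 rose and 6 fell at 2 h, with a median of -0.19 at 4 h beside 0.03 for all genes. Of all genes 18.5% rose and 19.7% fell at 4 h, and 19.1% and 18% at 2 h. UPF1, the central helicase, was at 282.7 ± 21.9 CPM (SD, n = 3) with CDK-TCIP1 and 304 ± 10.8 CPM (SD, n = 4) with Neg1 or Neg2, and did not pass (-0.11 ± 0.06, adjusted p = 0.162). UPF2 rose from 99.1 ± 3.79 to 119 ± 2.46 CPM (0.26 ± 0.06, adjusted p = 0.000593).

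SMG9, a partner of the SMG1 kinase, went from 43.3 ± 2.10 to 25.1 ± 2.39 CPM (-0.79 ± 0.08, adjusted p = 1.04e-08), and the helicase DHX34 from 48.2 ± 2.99 to 29.3 ± 1.99 CPM (-0.72 ± 0.08, adjusted p = 9.91e-08). SMG6, the endonuclease, had a change of -0.49 ± 0.08 (adjusted p = 3.03e-05) and the kinase SMG1 one of -0.28 ± 0.06 (adjusted p = 0.00101). UPF3B (-0.38), SMG5 (-0.22) and PNRC2 (-0.19) also fell. In the exon junction complex RNPS1 rose (0.15) and CASC3 fell (-0.61), while EIF4A3, MAGOH, MAGOHB and RBM8A did not pass at 4 h. At 2 h RNPS1 (0.10) and MAGOH (0.49, adjusted p = 0.00011) rose and CASC3 fell (-0.48).

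The exon junction list held 1 NMD-marked transcript, MAGOHB-208 (0.28 by level, 0.46 by ratio), which did not pass. Of 22 genes with mRNAs described as NMD-sensitive in general, 2 rose and 11 fell at 4 h, with a median of -0.35, and 2 rose and 13 fell at 2 h, beside 38.2% and 37.1% of all genes called in either direction. DDIT3, a stress-induced transcription factor, went from 33.7 ± 1.07 to 11.4 ± 1.09 CPM (-1.56 ± 0.12, adjusted p = 1.31e-10). ATF5 had a change of -1.08 ± 0.06 (adjusted p = 4.25e-13) and CHAC1, which degrades glutathione, one of -1.14 ± 0.12 (adjusted p = 1.8e-08). GADD45A (0.52) and TRA2A (0.26) rose. Many of these genes are also known to answer to amino acid and endoplasmic reticulum stress.

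Against DMSO the values are a description, because the DMSO level chose the transcripts. The median log2 change by level at 4 h was -0.27 with 30 nM CDK-TCIP1 and -0.10 with Neg1 and Neg2, and by ratio -0.21 and -0.10. RBM39-236 was at 8.23, 6.67 and 4.85 CPM in DMSO, PCBP2-218 at 9.003, 6.35 and 6.11 CPM, HNRNPD-211 at 3.78, 1.96 and 1.91 CPM and SON-206 at 2.10, 3.55 and 2.02 CPM. All 3 DMSO libraries lay below all 3 with CDK-TCIP1 at 4 h for these 4 transcripts.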

How the data were processed

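RNA of 23 SUDHL5 libraries in 9 groups was sequenced in read pairs after poly(A) enrichment, per the labels' protocols. The deposited tables hold kallisto's estimated counts, effective lengths and TPM for each of 227912 transcripts, per the file headers. The submitters' processing notes name FastQC, cutadapt, kallisto and DESeq2. Tool versions, reference transcripts and strandedness are not stated in the labels or file headers, so reads of a gene and of an antisense partner may not be separable.

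Transcripts were matched by ID without version to GENCODE 29 on GRCh38 (205804 matched, 91.88% of them with the same length), and the unmatched held 1.16 to 1.28% of counts. The transcripts studied, their limit and the gene lists were chosen with earlier results of these data known. The authors' estimated counts were rounded to whole numbers and tested in R 4.3.3 with edgeR 4.0.16: quasi-likelihood F test, TMM scaling, filterByExpr, 9 groups, 14 residual degrees of freedom, Benjamini-Hochberg over all 71167 transcripts. The ratio test fitted each transcript beside the sum of the gene's other protein_coding transcripts, with 1 effect per library, over 60833 transcripts. Its common dispersion was estimated on 3000 of them. The SE is the absolute log2 change divided by the root of F. The common biological coefficient of variation was 0.802 for levels and 0.712 for ratios. Both fits also estimated a quasi-likelihood dispersion per transcript, so these common values alone do not set the precision of a single transcript. The deposited TPM served only for the limit of 3. CPM values are scaled by TMM, and counts per 100 coding counts are not corrected for length, so they are no ratio of molecules.

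A transcript was called at an adjusted p under 0.05. Named are the called transcripts with no overlap at 4 h and the largest changes by either test (10 each way), the 5 highest in DMSO, up to 4 called per list, all those of the SR and TRA2, CLK and L cyclin, NMD core and exon junction lists, and the neighbours of the limit. One transcript and one sequence that this rule covers are not reported here. BRD2-212, SNRNP70-202, RIPK2-204, SRRT-219, RBMX-212, GPI-222, RBM39-244, RPL21-208, MRPS22-214 and EIF4A2-202 were named after their values were seen. Alternatives were DESeq2 1.42.0, its size factors in edgeR, no count filter, an effective length offset, limma 3.58.1 on log2 ratios with 0.5 added, only the groups compared, a replicate block, Neg1 or Neg2 alone, left-out libraries, a limit of 10 TPM and only transcripts with 100 or more own bases. On simulated data the fits recovered most but not all 2-fold changes, and the share required of the ratio test was lowered after that was seen. The simulated spread was set well below the common coefficient of variation of these data. That recovery therefore does not carry over to them.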

Additional observations from a re-analysis of the deposited data

Results flagged for a closer look

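SRSF7-208 changed differently at the 2 times by level: its effect at 4 h minus its effect at 2 h was 0.55 ± 0.10 on the log2 scale (adjusted p = 0.0132, edgeR). The transcript overlapped the comparison libraries at 4 h and lay below them at 2 h.

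In 3 of 66 groups tested, 1 library stood far from the others, and chance flags about 1 group in 20. All 3 were among the 4 libraries with 30 nM CDK-TCIP1 at 2 h. RPS3-218 was at 287.2 CPM in the lowest library, where the median of the other 3 was 485.7 CPM. RPS3-216, of the same gene, was at 301.0 CPM in the highest library against a median of 165.5 CPM. SRSF2-204 was at 14.2 CPM in the highest library against 9.96 CPM.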

How the results depend on the processing

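No result named reversed its direction: of the values for single transcripts under the alternatives, 3452 kept their side of the threshold, 500 lost the call and 49 gained it. The counts moved far more, and the cause was not tested except where an alternative tests fewer transcripts or libraries by construction. By level at 4 h (55 higher, 79 lower), DESeq2 called 88 and 141, Neg1 alone left 35 higher and Neg2 alone 51 lower. The limit of 10 TPM left 20 and 46 and own bases 24 and 16, by construction of fewer transcripts, and leaving out a library 44 to 51 and 55 to 67. By level at 2 h (47 higher, 58 lower), DESeq2 called 73 and 115, Neg1 alone left 21 and 26, Neg2 alone 29 and 36, 10 TPM 17 and 29, own bases 20 and 19, and leaving out a library 30 to 68 and 30 to 48. With no filter 36 were lower and with only the groups compared 37. By ratio at 4 h (29 higher, 20 lower), no filter left 8 and 1, only the groups compared 0 and 0, Neg1 alone 18 and 5, Neg2 alone 15 and 2, 10 TPM 9 and 5, own bases 10 and 6, and leaving out a library 16 to 22 and 3 to 11. There limma called 35 lower, and 9 were lower without 100 nM replicate 1 and Neg2 2 h replicate 1. By ratio at 2 h (19 higher, 8 lower), no filter left 6 and 0, only the groups compared 4 and 0, the 2 libraries out 7 and 1, Neg1 alone 6 and 1, Neg2 alone 9 and 1, 10 TPM 5 and 4, own bases 11 and 3, and leaving out a library 8 to 20 and 0 to 6. There limma called 27 lower, and where edgeR called 0, unadjusted p under 0.05 was met by 91 lower with no filter, 98 with only the groups compared and 98 without Neg1 replicate 1.

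Replicate numbers gave no clear sign of pairing. Between deviations from their group means, same-numbered libraries had correlations of -0.13 to 0.07 at 4 h and -0.28 to 0.29 at 2 h. Libraries with other numbers reached 0.475 at 2 h. With 2 libraries per comparison group, each value has a mirror of opposite sign, so this check is weak and cannot exclude pairing. With the replicate block, 31 were higher by level at 2 h, 5 lower by ratio at 4 h, and 7 higher and 3 lower by ratio at 2 h, while the other counts moved by less than 1.5 times.

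Reads divided among transcripts that share sequence, 2 libraries per comparison compound and low counts limit these results. The lowest mean was 5.67 estimated counts in the DMSO libraries, and 716 of the 1188 have no base of their own. Calls by ratio use the spread of all 9 groups, and DMSO at 2 h was not analysed here.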
